A study of Mus musculus with 4 samples.

Results

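The Hox genes are the homeobox genes of the Hoxa, Hoxb, Hoxc and Hoxd clusters, and 38 of them, chosen by symbol, were followed through 4 lists of regions with more of an active histone mark in 1 mouse strain than in another. They stood among 21774 protein-coding RefSeq genes, with 10 listed genes in Hoxa (chromosome 6), 10 in Hoxb (chromosome 11), 9 in Hoxc (chromosome 15) and 9 in Hoxd (chromosome 2). Embryonic stem (ES) cells came from embryos of C57BL/6 mice (B6) and of NOD mice, a strain prone to autoimmune diabetes, and were cultured with 2i, a pair of inhibitors of MEK and GSK3 that holds ES cells in a naive state. Chromatin immunoprecipitation with sequencing (ChIP-Seq) measured H3K4me3, trimethylation of histone H3 at lysine 4, found at promoters, and H3K27ac, acetylation at lysine 27, found at enhancers and active promoters. Each strain and mark had 1 library, so there were 4 libraries and no replicates, and no test between strains was possible. Each list was called in 1 strain with the other strain as the background, so a gene without a listed region may still carry the mark in both strains.

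Hox genes encode transcription factors that give cells their position along the head-to-tail axis and along the limbs. Within each cluster they lie in the order of the body levels they pattern, from anterior paralogs with low numbers to posterior paralogs with high numbers, and they are switched on in that order. In ES cells most Hox genes are silent, and their CpG-rich promoters are known to carry H3K4me3 together with H3K27me3, the repressive mark set by Polycomb, a state called bivalent.

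The windows below carry the findings: the first pair are promoters inside which a NOD-enriched H3K4me3 region of many tags begins or ends, and the other pair lies upstream of Hoxc12, where the lists of both strains held regions. Sequences are 5′ to 3′ on GRCm38.p6 (the RefSeq release of mm10), lower case with each CpG dinucleotide in capitals. Promoters (250 bp before to 50 bp after the transcription start site, TSS) are from RefSeq, and the Hoxc12 windows are the central 300 bp of the deposited regions on the plus strand.
Hoxd11 promoter, chr2:74682073-74682372, plus strand: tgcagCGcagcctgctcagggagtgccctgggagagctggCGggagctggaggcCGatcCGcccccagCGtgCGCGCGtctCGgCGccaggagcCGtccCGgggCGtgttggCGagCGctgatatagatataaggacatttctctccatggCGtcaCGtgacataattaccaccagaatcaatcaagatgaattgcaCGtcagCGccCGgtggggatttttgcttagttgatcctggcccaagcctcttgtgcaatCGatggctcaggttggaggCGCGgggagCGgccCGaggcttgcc
Hoxa10 promoter, chr6:52234890-52235189, minus strand: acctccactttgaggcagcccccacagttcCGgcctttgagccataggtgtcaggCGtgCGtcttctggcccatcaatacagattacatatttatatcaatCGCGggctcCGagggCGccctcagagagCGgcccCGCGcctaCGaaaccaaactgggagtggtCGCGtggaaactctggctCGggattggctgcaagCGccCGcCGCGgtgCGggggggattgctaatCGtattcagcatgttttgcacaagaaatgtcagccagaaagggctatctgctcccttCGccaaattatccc
Hoxc12 upstream, B6-enriched H3K27ac, chr15:102931751-102932050: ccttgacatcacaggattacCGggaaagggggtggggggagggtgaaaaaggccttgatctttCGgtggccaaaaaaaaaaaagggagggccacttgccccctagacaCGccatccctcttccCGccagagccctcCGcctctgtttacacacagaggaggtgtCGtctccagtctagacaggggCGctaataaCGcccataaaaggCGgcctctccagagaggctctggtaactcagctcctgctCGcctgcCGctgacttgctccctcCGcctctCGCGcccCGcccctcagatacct
Hoxc12 upstream, NOD-enriched H3K4me3, chr15:102934989-102935288: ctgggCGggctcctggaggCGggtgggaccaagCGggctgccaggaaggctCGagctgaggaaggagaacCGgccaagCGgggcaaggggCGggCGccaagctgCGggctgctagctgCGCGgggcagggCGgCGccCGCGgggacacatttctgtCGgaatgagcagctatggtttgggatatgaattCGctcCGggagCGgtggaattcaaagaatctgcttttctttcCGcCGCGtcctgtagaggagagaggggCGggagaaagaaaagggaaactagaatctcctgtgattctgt

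The Hoxd11 promoter held 25 CpGs and the Hoxa10 promoter 21, against a median of 7 over 32851 RefSeq promoters of the same length, of which 94.6% held at least 1 CpG. The NOD-enriched window upstream of Hoxc12 held 23 CpGs and the B6-enriched H3K27ac window 15. RefSeq promoters were at hand for 22 of the 38 Hox genes, and these 24 promoters had a median of 14.5 CpGs, from 4 to 45.

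The Hox genes had more NOD-enriched than B6-enriched H3K4me3 regions. The NOD list held 24 regions in the body of a Hox gene or within 5 kb of its TSS, and the B6 list held 5, a ratio of 4.8 (95% exact interval 1.795 to 16.1, counting error only). Over the whole lists of 12077 NOD and 7587 B6 regions the ratio was 1.59 (1.55 to 1.64). The NOD library was also deeper, with 22750449 tags (mapped reads) against 14791364, a ratio of 1.54, and the file headers put 2.66% of NOD tags and 1.32% of B6 tags in the listed regions. The part of depth and of enrichment in the counts was not tested.

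By gene, 20 of 38 Hox genes (52.6%, 95% exact interval 35.8 to 69.0) had a NOD-enriched H3K4me3 region, against 24.4% of all protein-coding genes. A B6-enriched H3K4me3 region was found at 7 of 38 (18.4%, 7.74 to 34.3), against 16.4%. For H3K27ac, 2 of 38 Hox genes (5.26%, 0.644 to 17.8) were assigned a B6-enriched region, against 16.8%, and 0 of 38 a NOD-enriched one (upper limit 9.25%), against 18.3%. The interval of the share with NOD-enriched H3K4me3 thus lay above its background, and those of both B6-enriched shares included theirs. The 0 for NOD-enriched H3K27ac rests on the gene named in the file: by position, as for H3K4me3, 1 region gave 2 of 38 (0.644 to 17.8) for NOD and 1 of 38 (0.0666 to 13.8) for B6. The share of all genes by position was not computed for H3K27ac, so 16.8% and 18.3% are not the background of these counts. Neighbouring Hox genes lie so close that 1 region can count for several of them, and the 20 genes shared 24 regions. Hox genes are also short, with a median length of 3.72 kb against 17.2 kb, so a window around the TSS alone is a closer comparison: within 5 kb of a TSS, 50% of Hox genes and 16.2% of all genes had a NOD-enriched region, and 18.4% and 9.24% a B6-enriched one. Among the 15577 protein-coding genes with promoter CpG content in the range of the Hox promoters, 29.5% had a NOD-enriched and 19.5% a B6-enriched region, gene bodies included. That range is wide (observed over expected CpG from 0.256 to 1.04), so these genes are not a close match for CpG content.

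**Figure D1:**
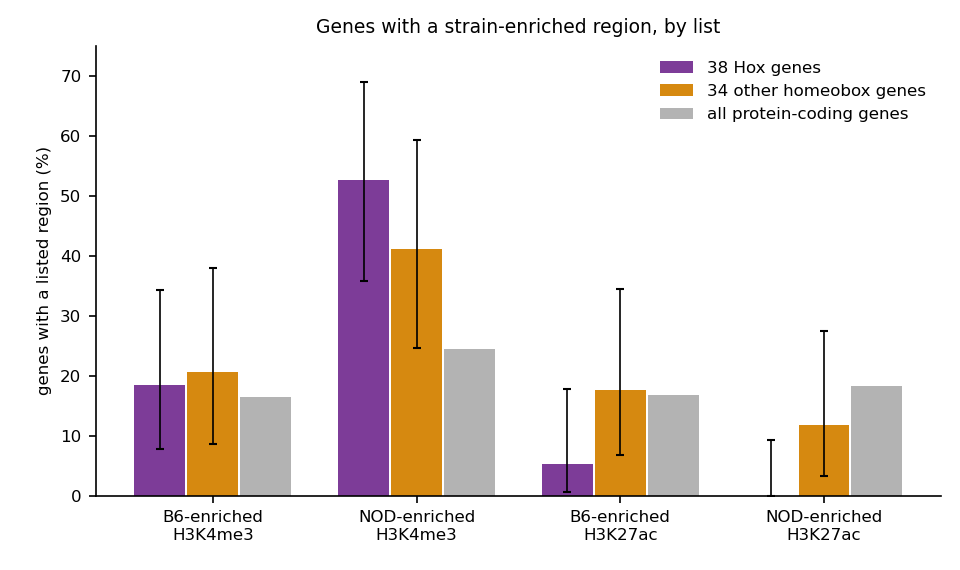
Percent of genes with a listed region in each of the 4 lists, for the 38 Hox genes, 34 other homeobox genes and all protein-coding genes; bars start at 0 and error bars are 95% exact binomial intervals, which cover counting error only. The Hox share is 52.6% in the NOD-enriched H3K4me3 list and 0 in the NOD-enriched H3K27ac list.

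The map of the clusters shows where these regions lay. The 4 clusters, from the first to the last base of their listed genes, spanned 0.485 Mb and held 26 NOD-enriched H3K4me3 regions, or 53.6 per Mb (95% exact Poisson interval 35.0 to 78.5), against 4.43 per Mb genome-wide, a 12.1-fold density. B6-enriched H3K4me3 regions numbered 6, or 12.4 per Mb (4.54 to 26.9), against 2.78, a 4.45-fold density. Each H3K27ac list had 1 region in the clusters, 2.06 per Mb (0.0522 to 11.5), beside 2.03 per Mb genome-wide for B6 and 2.25 for NOD. The clusters are short stretches dense in genes and were cut to the listed genes. The genome-wide densities are therefore not a matched background for either mark, and stretches of equal gene density were not counted. The NOD-enriched density was highest in Hoxd (92.9 per Mb) and Hoxa (81.3), followed by Hoxb (40.2) and Hoxc (17.3), and the Poisson intervals of neighbours in that order overlapped. Hoxc was the cluster in which the B6 list held more regions, 25.9 per Mb (5.35 to 75.8), than the NOD list (2.09 to 62.4), with overlapping intervals.

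**Figure D2:**
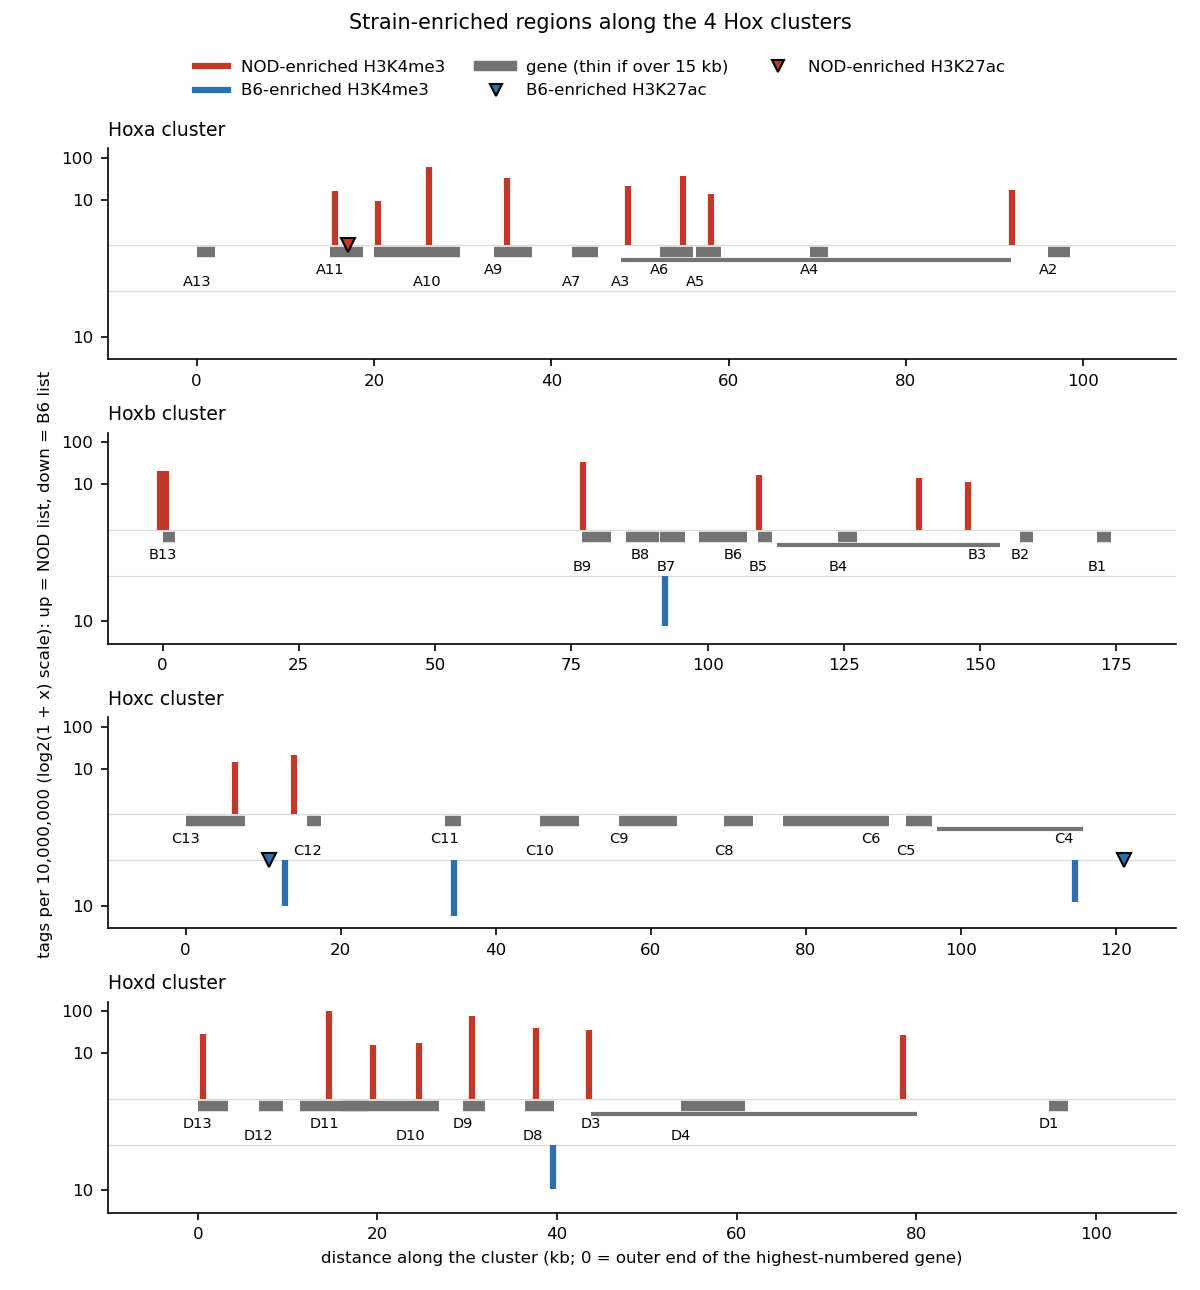
Listed H3K4me3 regions at Hox genes as bars at their distance in kb from the outer end of the highest-numbered gene, 1 panel per cluster; bar height is tags per 10000000 on a log2(1 + x) scale, upward for the NOD list and downward for the B6 list, and triangles mark listed H3K27ac regions without their score. The Hoxa panel has 8 upward bars and no downward bar, and Hoxc has 2 upward and 3 downward.

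The surroundings of the clusters were counted as well. Within 500 kb on either side, Hoxa had 12 B6-enriched and 5 NOD-enriched H3K4me3 regions, while the cluster held 8 NOD-enriched and 0 B6-enriched. Chromosome 6 as a whole had 6.91 B6-enriched and 3.72 NOD-enriched regions per Mb, so the Hoxa cluster ran against its chromosome. The flanks of Hoxb held 16 NOD-enriched and 4 B6-enriched regions, beside 7 and 2 in the cluster, and those of Hoxd 4 and 2, beside 9 and 1. NOD-enriched regions were also the more numerous on their chromosomes, with 683 against 415 on chromosome 11 and 911 against 471 on chromosome 2. The flanks of Hoxd held too few regions to tell a lean shared with the cluster from that of the chromosome, and neither was tested. The flanks of Hoxc held 7 NOD-enriched and 5 B6-enriched regions, beside 2 and 3 in the cluster. Around Hoxd no H3K27ac region of either list lay within 500 kb, and the nearest were 756 kb (B6) and 878 kb (NOD) away.

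Across the body axis, NOD-enriched H3K4me3 was found most often at posterior genes. Of 16 posterior genes (paralogs 9 to 13), 11 had a NOD-enriched region and 2 a B6-enriched one. Of 11 central genes (5 to 8), 5 had a NOD-enriched and 3 a B6-enriched region. Of 11 anterior genes (paralogs up to 4), 4 had a NOD-enriched and 2 a B6-enriched region. By the nearest TSS, 14 of the 24 NOD-enriched regions belonged to posterior, 4 to central and 6 to anterior genes. Over all protein-coding genes the shares were 24.4% (NOD-enriched) and 16.4% (B6-enriched). The counts by group are small, genes that share a region are not independent, and no difference between the groups was tested.

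In Hoxa the 8 NOD-enriched regions held 479 NOD and 66 B6 tags over 5.26 kb, 4.72-fold more in NOD after scaling to library totals (95% exact interval 3.64 to 6.20). The NOD list required 4-fold, so folds at its regions describe the members and are not support for a difference, and each interval covers the counting error of 2 libraries only. At Hoxa10, a posterior gene of the uterus and limb, a region at chr6:52234336-52234978 that covers the TSS had 137 NOD and 22 B6 tags, 4.05-fold (2.57 to 6.67). A weaker region at an upstream Hoxa10 exon, chr6:52240123-52240623, had 21 and 2 tags, 6.83-fold (1.67 to 60.1). The B6 library thus held tags in both, and those of the region at the TSS exceeded the genome average of 3.70 per 500 bp.

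At Hoxa9, a regulator of blood progenitors, a coding exon (chr6:52225630-52226130) had 78 NOD and 11 B6 tags, 4.61-fold (2.44 to 9.61). At Hoxa11, which patterns the forearm and the uterus, the coding exon region chr6:52245029-52245529 had 38 and 5 tags, 4.94-fold (1.94 to 16.1). Posterior Hoxa genes thus all had a region except Hoxa13. In the middle of the cluster, a 1487 bp region between Hoxa5 and Hoxa6 (chr6:52205249-52206736) had 87 NOD and 13 B6 tags, 4.35-fold (2.42 to 8.50). Hoxa5, needed for lung and trachea, also had a region 1.73 kb downstream of its TSS (chr6:52202607-52203107) with 31 and 5 tags, 4.03-fold (1.55 to 13.3). Both lie inside the long Hoxa3 transcript as well, and so count for several genes. Hoxa3, which patterns the thymus and parathyroid, had a region 0.893 kb into the gene (chr6:52211861-52212487) with 48 and 5 tags, 6.24-fold (2.50 to 20.1). Centred 4.11 kb upstream of Hoxa2, a hindbrain and pharyngeal arch gene, at the far end of the Hoxa3 gene, chr6:52168693-52169193 had 39 and 3 tags, 8.45-fold (2.69 to 42.8). Hoxa4, Hoxa7 and Hoxa13 had no listed H3K4me3 region.

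In Hoxb the 6 NOD-enriched regions held 270 NOD and 29 B6 tags over 3.13 kb, 6.05-fold (4.12 to 9.21). Hoxb13, the most posterior gene, known for its role in prostate and tail, stands far from the rest of the cluster and had 2 regions. The region over its coding exon, chr11:96194661-96195288, had 47 NOD tags and 1 B6 tag, 30.6-fold (5.22 to 1232), the highest fold and the only NOD-enriched Hox region whose interval lay wholly above 4. The region 0.469 kb upstream of its TSS, chr11:96193597-96194097, had 48 and 3 tags, 10.4-fold (3.35 to 52.2). Their CpG ratios (observed over expected) of 0.305 and 0.403 were the lowest of the 24, so the regions with the largest folds were not the CpG-richest.

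At Hoxb9, a thoracic patterning gene, the region over the TSS (chr11:96271189-96271689) had 79 NOD and 12 B6 tags, 4.28-fold (2.32 to 8.63). At Hoxb5 the region over the TSS (chr11:96303507-96304007) had 38 and 6 tags, 4.12-fold (1.73 to 11.9). The long hindbrain gene Hoxb3 had 2 regions inside the gene. One, at chr11:96332858-96333358, had 32 and 5 tags, 4.16-fold (1.61 to 13.7), and the other, at chr11:96341797-96342297, had 26 and 2 tags, 8.45-fold (2.12 to 73.5). Hoxb6 counted only through the Hoxb5 region. Between Hoxb9 and Hoxb5 the strains switched: at Hoxb7 the TSS lay inside a B6-enriched region, chr11:96286248-96286748, with 20 B6 and 4 NOD tags, 7.69-fold more in B6 (2.58 to 30.9). It was the only B6-enriched Hox region over a TSS, and it also lay within the window of Hoxb8. Hoxb1, Hoxb2 and Hoxb4 had no listed H3K4me3 region.

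In Hoxc, the B6 list held 3 regions with 54 B6 and 13 NOD tags, 6.39-fold more in B6 (3.44 to 12.8), and the NOD list held 2 with 84 NOD and 11 B6 tags, 4.97-fold more in NOD (2.64 to 10.3). At Hoxc11 an intron region, chr15:102955525-102956025, had 27 B6 and 10 NOD tags, 4.15-fold (1.95 to 9.62), the most tags of the 5 B6-enriched Hox regions. In the coding exon of Hoxc4, an anterior gene of the neck vertebrae, chr15:103035580-103036080 had 12 B6 and 2 NOD tags, 9.23-fold (2.05 to 84.9). The NOD-enriched region at Hoxc13, a gene of hair and nail, lay at a UTR exon 6.42 kb downstream of its TSS (chr15:102927239-102927866) with 34 NOD and 3 B6 tags, 7.37-fold (2.32 to 37.5).

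Upstream of Hoxc12 both lists held an H3K4me3 region, and the strains were reversed between them. The B6-enriched region had 15 B6 tags and 1 NOD tag, 23.1-fold more in B6 (3.55 to 971). The NOD-enriched region, chr15:102934888-102935388, whose central sequence is printed above, had 50 NOD and 8 B6 tags, 4.06-fold more in NOD (1.91 to 9.93). Hoxc5, Hoxc6, Hoxc8, Hoxc9 and Hoxc10, which make up the middle of the cluster, had no listed H3K4me3 region.

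Hoxd carried the most tags, with 792 NOD and 101 B6 tags over 5.37 kb in 8 NOD-enriched regions, 5.10-fold (4.14 to 6.34). The strongest Hox region was at Hoxd11, a gene of forearm patterning, where chr2:74682138-74683475 began inside the promoter printed above and had 235 NOD and 28 B6 tags, 5.46-fold (3.68 to 8.39), rank 263 of 12077 by normalised tag count. Hoxd9, on the other side of Hoxd10, had a coding exon region (chr2:74698419-74699189) with 175 and 27 tags, 4.21-fold (2.80 to 6.58), rank 405. These regions had the most NOD tags of the 24 and also the most B6 tags.

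At Hoxd13, the digit gene at the posterior end, chr2:74668549-74669049 had 68 NOD and 11 B6 tags, 4.02-fold (2.11 to 8.43). Hoxd10, a gene of lumbar motor neurons, had 2 intron regions of few tags. The first, chr2:74687428-74687928, had 36 and 3 tags, 7.80-fold (2.47 to 39.6), and the other, chr2:74692508-74693139, had 40 and 4 tags, 6.50-fold (2.35 to 25.0). Hoxd3, which patterns the upper neck vertebrae, had a region at each end of the gene. Over its TSS, at the end nearest to Hoxd8, chr2:74711557-74712057 had 82 and 8 tags, 6.66-fold (3.23 to 16.0). Over its coding exon, chr2:74746475-74747111 had 62 and 5 tags, 8.06-fold (3.28 to 25.7). Hoxd8 had regions of both strains 1.4 kb apart. Its coding exon, chr2:74705669-74706169, had 94 NOD and 15 B6 tags, 4.07-fold more in NOD (2.35 to 7.57). Its untranslated exon, chr2:74707569-74708069, had 14 B6 and 0 NOD tags. This was 7.18-fold higher in B6 with NOD set to a floor of 3 tags in its library (exact lower limit without the floor, 5.10). Hoxd1, Hoxd4 and Hoxd12 had no listed H3K4me3 region.

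**Figure D3:**
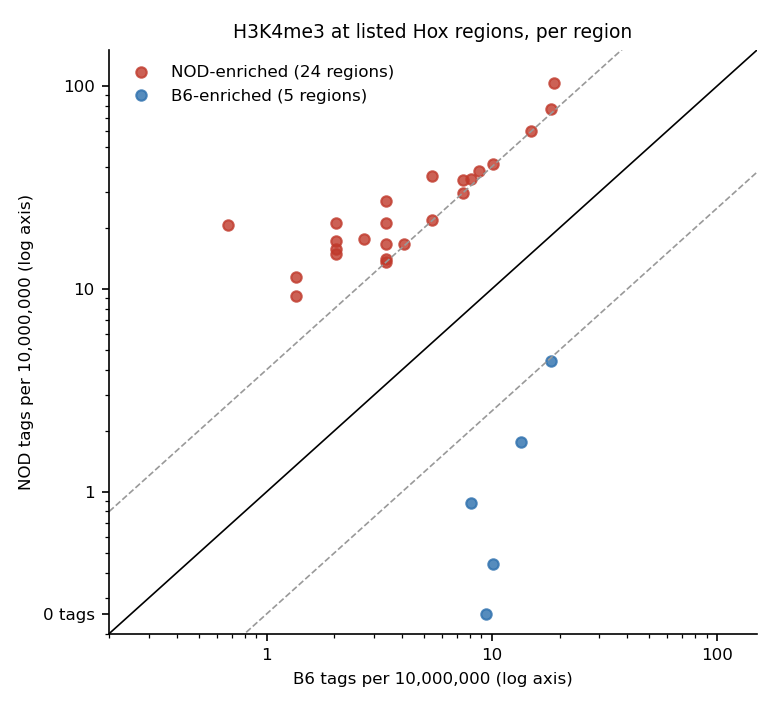
H3K4me3 tags per 10000000 in NOD (vertical) and B6 (horizontal) for the 29 listed Hox regions, both axes logarithmic; the solid line marks equal levels, dashed lines a 4-fold difference, and the region with 0 NOD tags is drawn at the bottom. The NOD-enriched regions with the most NOD tags, at Hoxd11 (5.46-fold) and Hoxd9 (4.21-fold), are also those with the most B6 tags. The B6-enriched regions reach 18.3 tags per 10000000 at most.

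Together, 17 genes had only NOD-enriched H3K4me3 and 4 (Hoxb7, Hoxb8, Hoxc4 and Hoxc11) only B6-enriched H3K4me3. Hoxc12, Hoxd3 and Hoxd8 had regions of both strains, Hoxd3 through the B6-enriched region at Hoxd8, and 14 genes had neither. Within the 24 NOD-enriched Hox regions, 1625 NOD and 207 B6 tags lay in 14.9 kb, 5.10-fold more in NOD (4.41 to 5.93).

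Hox regions of the NOD list were set beside the whole list and, since they were chosen near genes, beside the 3654 other NOD-enriched regions within 5 kb of a protein-coding TSS, where 22 of the 24 Hox regions also lie. They had a median of 48 NOD tags against 30 over the whole list, and 11 of 24 (45.8%) had at least 50 NOD tags against 22.02%. Their median of B6 tags was 5 against 2, and 0 of 24 had no B6 tags, while 34.9% of the whole list had none. Against the regions near other TSSs these gaps were smaller: the median of NOD tags was 48 against 39, that of B6 tags 5.5 against 4, the share with at least 50 NOD tags 45.5% against 38.6%, and the share with no B6 tags 0% against 17.3%. In 16 of the 24 the B6 tags exceeded the B6 genome average for their width (3.70 tags per 500 bp over a genome of the size set in the header). The median fold was 5.199 against 6.07 for the whole list, with regions of no B6 tags set at 3 B6 tags, and 12 of 24 (50%) lay below 5-fold, near the threshold of the list, against 31.0%. The 5 B6-enriched Hox regions had a median of 15 B6 tags against 20 over their list. None had 50 or more, against 5.865% of their list. All 5 were of the minimum width of 500 bp, as were 83.4% of the list, so neither count sets them apart.

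**Figure D4:**
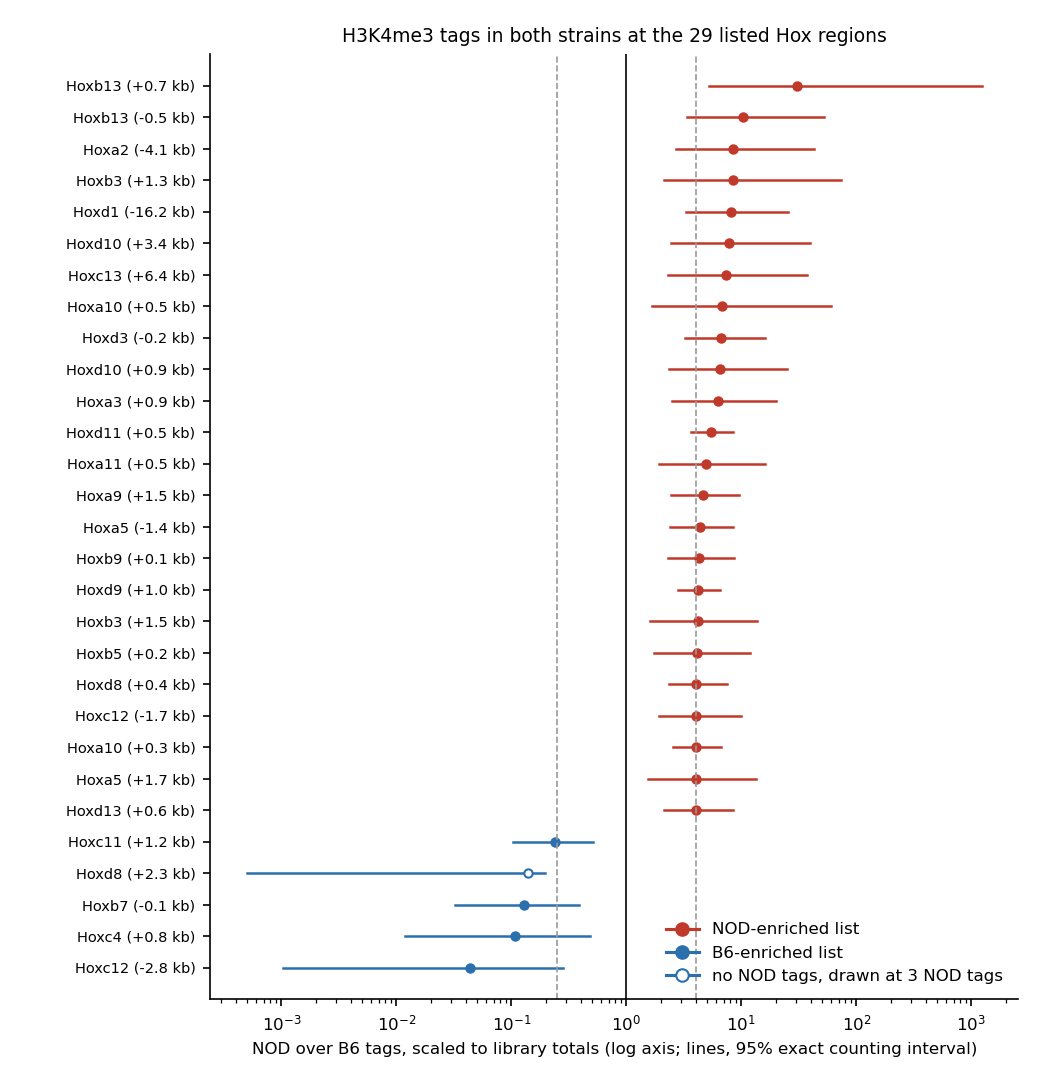
Ratio of NOD to B6 H3K4me3 tags, scaled to library totals, at the 29 listed Hox regions on a log axis, each named by the nearest Hox TSS and the distance of its centre from it; lines are 95% exact counting intervals, dashed lines mark 4-fold, and the open point is drawn at 3 NOD tags with its line running off to the left. Of the 24 NOD-enriched regions, 12 lie below 5-fold, and the Hoxb13 coding exon has the highest ratio at 30.6.

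Position and sequence of the regions were described next. Being near a gene is part of how the regions were chosen, so regions within 5 kb of a TSS are the closer comparison, which was chosen after seeing the data. There, the centre lay within 1 kb of a TSS in 13 of 22 NOD-enriched Hox regions (59.1%) against 38.6% at other protein-coding genes, and in 2 of 5 B6-enriched ones (40%) against 50.8%. By annotation, 10 of the 24 centres lay in a coding exon, 5 in a UTR exon, 1 in a noncoding exon, 6 in an intron and 2 outside genes, and 18 of 24 lay downstream of the nearest Hox TSS. Gene bodies, through which regions were also chosen, lie downstream of their TSS, and these counts were not set beside those of other regions. A TSS lay inside a NOD-enriched region at Hoxa10, Hoxb9, Hoxb5, Hoxd11 and Hoxd3. The median CpG ratio was 0.763 in the NOD-enriched Hox regions, 0.309 in NOD-enriched regions within 5 kb of other TSSs and 0.235 in the whole list. A ratio of 0.6 was reached by 17 of 24 (70.8%), or 16 of 22 (72.7%) within 5 kb of a TSS, against 16.1% near other TSSs. In the B6-enriched Hox regions the median was 0.590, from 0.284 at Hoxd8 to 0.808 at Hoxb7, against 0.344 near other TSSs. Among all listed regions with a ratio of at least 0.6, 867 were in the NOD list and 573 in the B6 list, a ratio of 1.51 (1.36 to 1.68) close to that of the whole lists, while at Hox genes these numbers were 17 and 2. Hox promoters with a NOD-enriched region nearby had a median CpG ratio of 0.732 (0.340 to 1.04, 20 genes), and those without had 0.588 (0.256 to 0.931, 18 genes), with wide overlap.

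**Figure D5:**
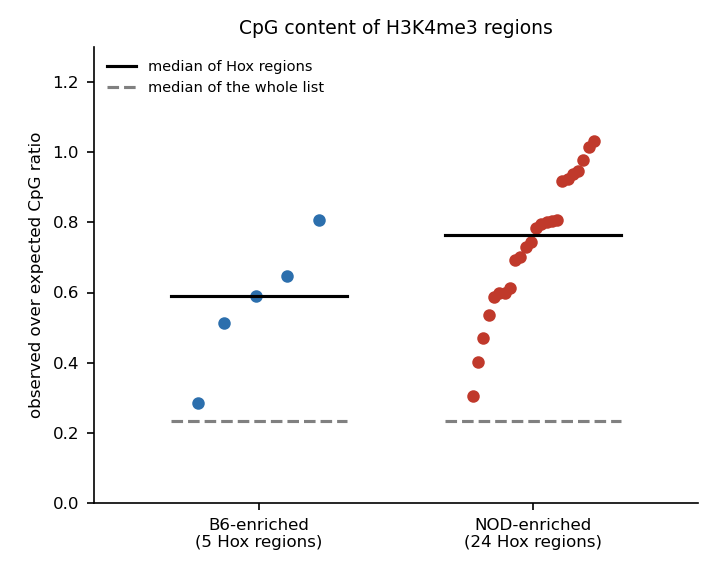
Observed over expected CpG ratio of each listed Hox H3K4me3 region (points) in the B6 and NOD lists, with the median of the Hox regions (solid) and of the whole list (dashed). The Hox medians are 0.590 and 0.763, and the whole lists, which include regions far from genes, have medians of 0.233 and 0.235.

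H3K27ac differed between strains at few places near Hox genes, and none of them coincided with an H3K4me3 region. Inside the clusters each list had 1 region, 2.06 per Mb, beside 2.03 (B6) and 2.25 (NOD) genome-wide, where genes are less dense. The region assigned to Hoxc4, chr15:103041807-103042515, lay 7.77 kb downstream of its TSS and had a B6 score of 82, rank 294 of 5525. The score is the signal of 1 strain minus that of the other on a scale the files do not state, so it is read by rank. The region assigned to Hoxc12, chr15:102931325-102932475, had a score of 59.5, rank 497, and lay 4.95 kb upstream of the TSS. They stood in the top 5.32% and 8.995% of the B6 list. Both were assigned to genes of Hoxc, the cluster with the most B6-enriched H3K4me3 regions. The region assigned to Hoxc4 lay beyond the end of that gene and of the cluster. The NOD list had no region assigned to a Hox gene. By position, a weak NOD-enriched region lay in the Hoxa11 gene (chr6:52243640-52243873, score 7.1, rank 5377 of 6126), which the file assigns to the antisense gene Hoxa11os. Of the 24 NOD-enriched and 5 B6-enriched H3K4me3 regions, 0 overlapped an H3K27ac region of either strain by at least 1 bp, with exact upper limits of 14.3% and 52.2%. Over the whole lists 5.81% of NOD-enriched H3K4me3 regions overlapped NOD-enriched H3K27ac and 3.63% of B6-enriched ones overlapped B6-enriched H3K27ac, so overlaps at this rate could not be detected with so few regions.

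Between the listed Hox genes the clusters held a few more H3K4me3 regions. In the gap between Hoxb13 and Hoxb9, chr11:96203190-96204388 had 157 NOD and 14 B6 tags, 7.29-fold (4.22 to 13.6), in an exon of the noncoding gene Gm11538. In the same gap chr11:96253747-96254382 had 28 NOD and 2 B6 tags, 9.10-fold (2.30 to 78.9), while chr11:96227571-96228284 had 24 B6 and 0 NOD tags. The latter was 12.3-fold higher in B6 at a floor of 3 NOD tags (exact lower limit without the floor, 9.26). So the long Hoxb gap held regions of both strains. Near Hoxd1, chr2:74752477-74753289 had 42 NOD tags and 1 B6 tag, 27.3-fold (4.64 to 1104), inside the long noncoding RNA gene Haglr (chr2:74748422-74762896), with its centre in an exon of the noncoding gene Gm14424 on the other strand.

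Genes that work with or on the Hox clusters were described by the same rule and read against the shares of all protein-coding genes, 24.4% (NOD) and 16.4% (B6) for H3K4me3 and 18.3% and 16.8% for H3K27ac; no difference between lists was tested. Of 26 cluster neighbours and Hox noncoding RNAs found in the annotation, 13 had NOD-enriched and 5 B6-enriched H3K4me3. Several of the NOD-enriched regions (at Hoxaas2, Hoxaas3, Hoxb5os, Hoxd3os1 and Mir196b) are the Hox regions above. Many genes of this list are noncoding, and over all RefSeq genes the shares were 16.1% (NOD) and 10.7% (B6). The rule counts gene bodies, so long genes in any of these lists have more room for a region, and length was not matched. Outside the clusters, Evx1, a homeobox gene beside Hoxa13, had 31 NOD and 5 B6 tags at chr6:52316971-52317471, 4.03-fold (1.55 to 13.3). Skap2, on the other side of Hoxa, had 2 B6-enriched H3K4me3 regions and 1 NOD-enriched one, as well as 6 B6-enriched H3K27ac regions, the nearest of them 130.5 kb from the cluster, and 1 NOD-enriched one (score 9.01).

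Of 34 homeobox genes outside the clusters, 14 had NOD-enriched (41.2%, 24.7 to 59.3) and 7 B6-enriched H3K4me3 (20.6%, 8.70 to 37.9), beside 24.4% and 16.4% of all protein-coding genes. Among those with B6-enriched H3K4me3 was Otx2, a forebrain gene, with a region of 36 B6 and 6 NOD tags (9.23-fold, 3.85 to 26.8). Of the 9 TALE cofactors, which bind DNA together with Hox proteins, 4 had NOD-enriched and 3 B6-enriched H3K4me3. Meis2 had 63 NOD and 5 B6 tags in 1 region (8.19-fold, 3.33 to 26.1).

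Of 18 upstream regulators, 10 had NOD-enriched (55.6%, 30.8 to 78.5) and 3 B6-enriched H3K4me3 (16.7%), and 5 (27.8%) and 8 (44.4%) had NOD-enriched and B6-enriched H3K27ac. Aldh1a2, which makes retinoic acid, an inducer of Hox genes, had 193 NOD and 27 B6 tags (4.65-fold, 3.10 to 7.24). Cyp26a1, which degrades it, had 109 and 14 tags (5.06-fold, 2.89 to 9.57). The retinoic acid receptor genes were split, with Rarb at 91 NOD and 7 B6 tags (8.45-fold, 3.94 to 21.6) and Rara at 101 B6 and 21 NOD tags (7.40-fold more in B6, 4.59 to 12.5). Of 30 Polycomb genes, which encode repressors of Hox genes, 12 had NOD-enriched (40%) and 10 B6-enriched H3K4me3 (33.3%). Of 19 genes for Trithorax proteins and histone demethylases, the counts were 10 (52.6%) and 8 (42.1%).

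Markers of cell states were counted in the same way. Of 8 markers of differentiated cells, 7 had NOD-enriched H3K4me3 (87.5%, 47.3 to 99.7, against 24.4% of all genes) and 1 (Gata4) also B6-enriched H3K4me3 (12.5%, against 16.4%), and only Sox17 had none. The 8 NOD-enriched regions held 844 NOD and 76 B6 tags, a direction that the list itself requires. At Nes, a neural progenitor gene, the region had 356 NOD and 24 B6 tags (9.64-fold, 6.38 to 15.3). Of 10 ES cell markers, 5 had NOD-enriched (50%, 18.7 to 81.3) and 3 B6-enriched H3K4me3 (30%). Their 13 NOD-enriched regions held 3344 NOD and 325 B6 tags, and their 3 B6-enriched regions 61 B6 and 12 NOD tags. At Zfp42, an ES cell marker, the region with most tags had 1436 NOD and 77 B6 tags (12.1-fold, 9.64 to 15.5). The part of these markers in the Hox result was not tested, and because the lists hold differences only, their level in each strain could not be read from them.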

How the data were processed

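ChIP-Seq regions of H3K4me3 and H3K27ac from B6 and NOD ES cells were used as deposited, 1 library per strain and mark. The study states mapping to mm10 and HOMER at default settings, while the submitters' processing notes name mm9, STAR 2.2.0c and CASAVA 1.8.2. Distances to the TSS in the H3K27ac files matched GRCm38.p6 RefSeq within 100 bp for 96.5% of 5455 B6 and 96.2% of 6053 NOD regions, so mm10 was used. Reads of both strains were placed on this one reference, which is of B6 origin.

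Per the file headers, H3K4me3 regions needed 8 tags and 4-fold more tags than the other strain. The deposited count of tags is whole in the B6 list and scaled to the B6 library in the NOD list, and multiplying by the ratio of the header totals gave back whole NOD tags. The deposited signal is tags per 10000000, the deposited ratio is the fold over the other strain, and the H3K27ac score deposited by the authors is a difference of strains. No source used here gives the depth behind H3K27ac. The deposited p-values compare 2 libraries and were not used.

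A gene had an H3K4me3 region when its body or 5 kb around any RefSeq TSS was overlapped by at least 1 bp, and an H3K27ac region when the file named it as the nearest gene. Shares have exact binomial intervals, densities exact Poisson intervals and tag ratios exact conditional binomial intervals at 95%. These cover counting error only, since amplified reads are not independent molecules. The CpG ratio is observed over expected CpG, within the region or within 500 bp of the TSS. Functions were tested on simulated data. Python 3.11.15, numpy 2.4.6, pandas 2.3.3 and scipy 1.17.1 were used. By rule, every Hox gene and every region at one is given, except that the position and sequence of 1 region are not reported here. The genes and lists were chosen with earlier results of these data known, and genes named from the other lists were chosen after their values were seen.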

Additional observations from a re-analysis of the deposited data

How the results depend on the processing

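Of 54 alternatives, 38 left the value within 1.5 times, or within its interval, 16 moved it, and 0 reversed it. At 8-fold or more, 5 of 24 NOD-enriched and 3 of 5 B6-enriched H3K4me3 regions at Hox genes were left. With at least 20 tags, 2 B6-enriched regions were left, and with at least 50 tags as deposited, 8 NOD-enriched and 0 B6-enriched. With 1 kb in place of 5 kb around the TSS, 4 Hox genes in place of 7 had a B6-enriched H3K4me3 region. Assigning H3K27ac by position gave 1 B6-enriched and 1 NOD-enriched region in place of 2 and 0. With all RefSeq genes as the background, the shares were 16.1% (NOD H3K4me3), 10.7% (B6 H3K4me3), 8.59% (B6 H3K27ac) and 9.28% (NOD H3K27ac). Adding 50 kb to each side of the clusters gave 1.13 NOD-enriched H3K27ac regions per Mb in place of 2.06, since few lie there. Counting centres within 2 kb gave 1 NOD-enriched H3K4me3 region near NOD-enriched H3K27ac in place of 0. Without scaling to library totals, the median fold, over regions with tags in both strains, was 7.996 in place of 5.199 for NOD and 5.5 in place of 8.46 for B6, as the NOD library is deeper. The use of curated transcripts only and of a background limited to the CpG range of Hox promoters were chosen after seeing the data.

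The B6-enriched Hox regions rest on 12 to 27 tags each, and 12 of the 24 NOD-enriched ones lie below 5-fold. With 1 library for each strain and mark, no replicate could be left out and strain, library and depth cannot be told apart. No paired analysis was possible because no group has a replicate.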
